A study of Mus musculus with 20 samples.

Results

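MAZ is a zinc finger protein that binds GC-rich DNA, mostly at gene promoters. RAD21 belongs to cohesin, a ring-shaped complex that moves along chromatin and forms loops. In normal cells much of cohesin halts at CTCF, the best known insulator protein, and what it meets elsewhere is asked by removing CTCF. MAZ has been put forward as a second insulator factor, so the places where MAZ and RAD21 lie together, and the places where each lies alone, are the subject here.

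Chromatin immunoprecipitation with sequencing (ChIP-seq) had been done in E14 cells, a widely used line of mouse embryonic stem cells, in which CTCF carries an auxin-inducible degron, a tag through which auxin has the protein degraded. The series has 20 samples from 4 conditions and 3 antibodies (CTCF, MAZ and RAD21), of which 12 came with a peak list. The 2 lists compared, MAZ and RAD21, came from parental cells with intact Maz that had received auxin for 2 days (ΔCTCF). The other lists served as yardsticks: untreated cells of the same degron line (WT), and a degron line from which Maz had been knocked out, a single clone named B2 in the titles, without auxin (ΔMAZ) or with it (ΔCTCF/ΔMAZ).

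A MAZ peak and a RAD21 peak that shared at least 1 bp were taken as a site with both. The MAZ list held 6759 peaks and the RAD21 list 17912, together 24671 of the 136043 peaks in the 12 lists. Each group had 1 list, so the differences below have no replicate check, and p-values are not given. Intervals are 95% intervals (Wilson for shares, order statistics for medians) that cover counting error over peaks only. The lists give no read totals. The lowest read pileup at a summit was 8 in the MAZ list and 12 in the RAD21 list, and the medians were 16 and 22. Shallow peaks near those limits could be called or missed by chance, so that a peak called alone is a statement about calls and not about absence of the partner. As a check of the antibody, 18 of the 6759 MAZ peaks overlapped one of the 33 MAZ peaks called in ΔMAZ or the 33 called in ΔCTCF/ΔMAZ, and these were left out of the choice of named sites. As a check of auxin, 88 of the MAZ peaks (1.30%, 1.06 to 1.60) and 11.9% of the RAD21 peaks (11.5 to 12.4) still overlapped a CTCF peak of ΔCTCF. A CTCF peak of WT was overlapped by 5.49% of the same MAZ peaks and 41.1% of the same RAD21 peaks.

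Sites that carry the strongest MAZ and RAD21 peaks together are printed here, with an upstream window of a MAZ-only promoter and a window of a RAD21-only site for contrast. Sequences are from RefSeq (GRCm38.p6, the build mm10 of the lists). Promoter windows run 5′ to 3′ along the gene and stop before any annotated UTR, the 2 windows far from genes run along the plus strand, and capitals mark the letters GGGAGGG on either strand, the core of the sequence MAZ binds. Pou2f2 and Denr have no such core in their windows, Ptgfrn and Faf2 have 1 each, and Nat9 is shown because it was chosen by name.
Pou2f2, both, chr7:25133231-25133371, minus strand: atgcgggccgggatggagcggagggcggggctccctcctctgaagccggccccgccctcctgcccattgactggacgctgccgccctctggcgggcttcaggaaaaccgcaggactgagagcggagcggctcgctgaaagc
Ptgfrn, both, chr3:101110445-101110648, minus strand: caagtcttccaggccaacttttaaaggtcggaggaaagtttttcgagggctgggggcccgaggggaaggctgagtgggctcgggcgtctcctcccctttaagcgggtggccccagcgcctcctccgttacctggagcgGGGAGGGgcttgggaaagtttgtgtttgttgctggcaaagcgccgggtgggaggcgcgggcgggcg
Faf2, both, chr13:54621626-54621758, plus strand: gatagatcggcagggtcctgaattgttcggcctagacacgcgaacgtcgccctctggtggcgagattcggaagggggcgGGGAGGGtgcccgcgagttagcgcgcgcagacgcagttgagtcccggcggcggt
Denr, both, chr5:123907000-123907174, plus strand: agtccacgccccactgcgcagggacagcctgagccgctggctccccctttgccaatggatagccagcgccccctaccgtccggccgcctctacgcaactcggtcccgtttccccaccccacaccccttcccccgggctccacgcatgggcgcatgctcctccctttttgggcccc
Nat9, both, chr11:115187391-115187486, minus strand: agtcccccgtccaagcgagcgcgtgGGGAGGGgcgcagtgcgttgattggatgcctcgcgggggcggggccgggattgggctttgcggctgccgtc
Site nearest to Tmem51os1, both, chr4:142070858-142071143, plus strand: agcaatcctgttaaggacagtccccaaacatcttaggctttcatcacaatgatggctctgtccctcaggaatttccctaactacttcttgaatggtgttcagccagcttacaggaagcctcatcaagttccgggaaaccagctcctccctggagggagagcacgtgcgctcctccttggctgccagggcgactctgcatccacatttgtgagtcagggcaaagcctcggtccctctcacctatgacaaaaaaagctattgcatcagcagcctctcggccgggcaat
Ranbp6, MAZ only, chr19:29812980-29813100, minus strand: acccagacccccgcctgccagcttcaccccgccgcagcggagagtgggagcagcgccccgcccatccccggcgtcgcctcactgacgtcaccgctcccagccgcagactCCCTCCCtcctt
Site nearest to Anxa4, RAD21 only, chr6:86806563-86806683, plus strand: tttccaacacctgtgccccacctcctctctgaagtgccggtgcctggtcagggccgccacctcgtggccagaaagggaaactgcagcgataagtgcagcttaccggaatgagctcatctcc

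Of the MAZ peaks, 2116 overlapped a RAD21 peak (31.3%, 30.2 to 32.4) and 4643 were MAZ only. Of the RAD21 peaks, 2137 overlapped a MAZ peak (11.9%, 11.5 to 12.4) and 15775 were RAD21 only. The counts of both sides differ because 48 MAZ peaks met 2 or more RAD21 peaks and 27 RAD21 peaks met 2 or more MAZ peaks, in 2164 pairs. The share rested on how much overlap was asked for and on how far down the lists were read: a reciprocal overlap of 50% gave 19.2% of MAZ and 7.25% of RAD21 peaks, raising the lowest −log10 q to 5 gave 20.5% and 8.24%, and the strongest 6759 peaks of each list gave 7.47% and 7.28%. Most sites did not lie at the limit of the rule. The median overlap was 240 bp, with 67 pairs that shared 50 bp or less, and the median gap from a MAZ-only peak to the nearest RAD21 peak was 23726 bp, with 47 gaps under 50 bp.

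Where a peak lay relative to genes separated the 3 classes in one direction only. Promoters (summit within 1 kb of an annotated transcription start site, TSS) held 71.9% of the MAZ peaks with RAD21 (69.9 to 73.8), 74.0% of the MAZ-only peaks (72.8 to 75.3) and 20.0% of the RAD21-only peaks (19.4 to 20.7). The first 2 intervals overlapped here, and the third lay far below both. The overlap of the first 2 held in some other settings and not in all. With a reciprocal overlap of 50% the shares were 73.3% (70.9 to 75.7) with RAD21 and 73.4% (72.2 to 74.5) for MAZ only. With −log10 q raised to 5 they were 69.8% (66.9 to 72.5) with RAD21 and 76.7% (75.3 to 77.9) for MAZ only. Of the RAD21-only peaks, 47.2% lay over 10 kb from any TSS, against 13.8% of the RAD21 peaks with MAZ. In lists cut to their strongest 6759 peaks, promoters held 64.2% (59.9 to 68.2) of the MAZ peaks with RAD21, 74.1% (73.0 to 75.2) of the MAZ-only peaks and 12.3% of the RAD21-only peaks.

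Read the other way, a RAD21 peak had a MAZ partner mainly at promoters, whereas for MAZ peaks of the full lists the shares with RAD21 were closer to each other. The settings above, in which MAZ peaks with RAD21 lay less often at promoters than MAZ-only peaks, limit the second statement. Of 4692 RAD21 peaks at promoters, 1534 (32.7%, 31.4 to 34.0) had MAZ, against 5.64% of those at 1 to 10 kb and 3.80% of those over 10 kb away. Of the MAZ peaks, 30.7% had RAD21 at promoters (29.4 to 32.0), 31.7% at 1 to 10 kb (28.8 to 34.7) and 34.6% over 10 kb away (31.5 to 37.9). Promoters with TSSs on both strands had RAD21 at 31.1% of their MAZ peaks (28.4 to 33.9) and those with a single direction at 30.6% (29.1 to 32.0). Of the RAD21 peaks, 37.0% (33.9 to 40.1) had MAZ at promoters with TSSs on both strands and 31.6% (30.2 to 33.1) at the others, with intervals that did not overlap.

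CTCF sites were rare among the sites with both. Of the RAD21 peaks with MAZ, 10.5% (9.30 to 11.9) overlapped a CTCF peak of WT, against 45.2% (44.4 to 46.0) of the RAD21-only peaks. Where a MAZ peak did lie on a CTCF site of WT, 218 of 371 (58.8%, 53.7 to 63.7) had RAD21, against 29.7% (28.6 to 30.8) of the MAZ peaks elsewhere. With all peaks on CTCF sites of WT or ΔCTCF left out, 29.4% of MAZ peaks had RAD21 and 17.9% of RAD21 peaks had MAZ.

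Most sites with both were places where MAZ had been called in WT and RAD21 had not. Of the MAZ peaks with RAD21, 67.7% (65.7 to 69.6) were also called in the MAZ list of WT, and 15.9% (14.4 to 17.5) overlapped a RAD21 peak of WT. MAZ-only peaks were called in WT at 58.8% and overlapped a RAD21 peak of WT at 2.22%. RAD21-only peaks overlapped a RAD21 peak of WT at 47.7% (47.0 to 48.5), against 17.0% (15.5 to 18.6) for RAD21 peaks with MAZ. Away from CTCF sites of WT the order was turned, with 7.66% (7.11 to 8.24) of RAD21-only peaks against 9.62% (8.38 to 11.0) of RAD21 peaks with MAZ. The plot of calls in the other lists shows these values side by side.

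**Figure D1:**
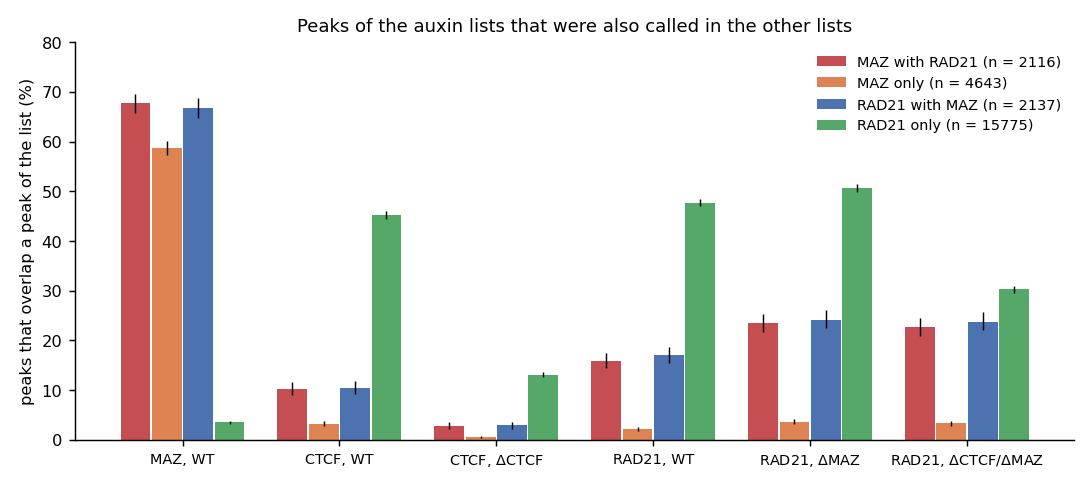
Share of each class of ΔCTCF peaks (y axis, percent) that overlapped a peak of another list (x axis, antibody and condition), with bars for MAZ peaks with RAD21, MAZ-only, RAD21 peaks with MAZ and RAD21-only peaks, and Wilson 95% intervals. The 2 views of the shared sites stand together in every list, MAZ-only peaks are high only in the MAZ list of WT (58.8%), and RAD21-only peaks are the highest class in both CTCF lists and in the RAD21 lists.

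In cells that lack MAZ, the RAD21 peaks were followed by whether the RAD21 list of ΔCTCF/ΔMAZ called them. At promoters, 22.6% (20.5 to 24.7) of the RAD21 peaks with MAZ and 24.2% (22.7 to 25.7) of those without were called there, and the intervals overlapped. Away from CTCF sites of WT the order was the other way, with 18.9% (16.9 to 21.0) of 1377 promoter peaks with MAZ against 12.3% (11.1 to 13.7) of 2294 without. Away from CTCF sites and over 10 kb from any TSS it was 24.9% (20.1 to 30.4) with MAZ against 10.6% (9.63 to 11.6) without. The same classes at promoters away from CTCF sites were called in RAD21 of ΔMAZ at 14.5% (12.8 to 16.5) and 11.2% (9.98 to 12.6), and in RAD21 of WT at 7.84% (6.54 to 9.38) and 5.84% (4.95 to 6.88). The intervals stood apart in ΔCTCF/ΔMAZ and ΔMAZ and overlapped in WT. CTCF sites moved with this comparison, since 10.2% of the promoter RAD21 peaks with MAZ and 27.4% of those without lay on one. The call rate followed strength in both classes: over 5 equal groups of RAD21 fold enrichment it went from 8.52% to 77.9% at promoters with MAZ and from 7.70% to 88.9% at promoters without. In groups 2 to 4 it was 15.4%, 18.7% and 44.7% with MAZ, and 11.9%, 16.9% and 35.6% without. The intervals of both classes overlapped in each of the 5 groups.

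The partner share went up with strength for MAZ, and for RAD21 it was lowest at the strongest peaks. Strength is the fold enrichment at the summit as the peak caller gave it, ranked within its own list, since values of different libraries are not on a common scale. From the weakest to the strongest quintile (5 groups of equal size) of MAZ peaks, 24.8% (22.6 to 27.1), 28.8%, 30.3%, 32.9% and 39.7% (37.1 to 42.4) had RAD21. From the weakest to the strongest quintile of RAD21 peaks, 14.9%, 14.7%, 14.9%, 11.3% and 3.88% (3.29 to 4.56) had MAZ. Ranking by −log10 q gave 25.6% and 38.5% at the ends for MAZ, and 15.9% and 3.57% for RAD21.

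At promoters the RAD21 shares were 32.4%, 32.8%, 36.9% and 36.6% in the first 4 quintiles and 17.3% (14.1 to 21.1) in the strongest. The lower share of the strongest RAD21 peaks was thus present within promoters too, while the first 4 quintiles showed no fall there. Over 10 kb from any TSS the shares were 3.36%, 4.82%, 4.96%, 4.47% and 1.72% from the weakest to the strongest quintile. For MAZ peaks over 10 kb away the weakest quintile had RAD21 at 27.3% (21.7 to 33.8) and the strongest at 48.4% (38.5 to 58.4).

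**Figure D2:**
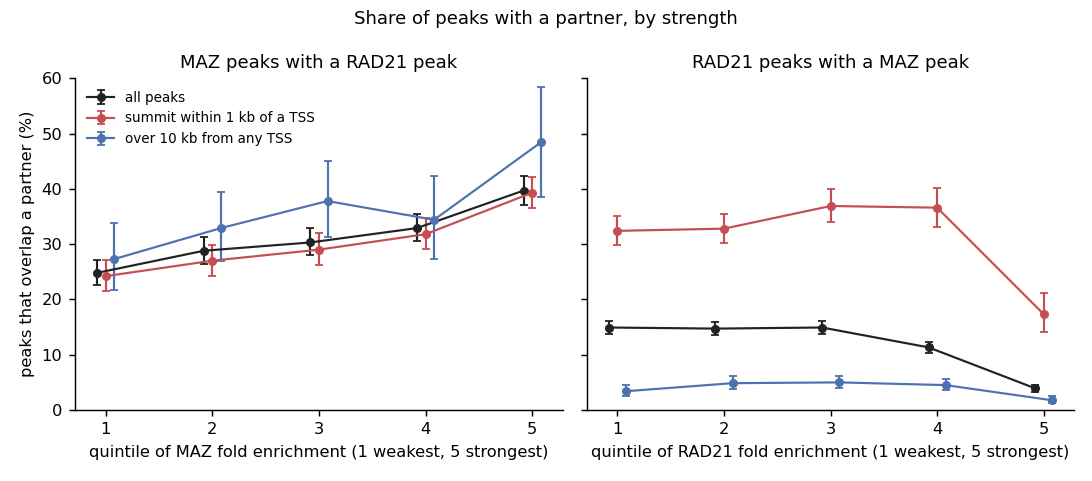
Share of MAZ peaks with a RAD21 peak (left) and of RAD21 peaks with a MAZ peak (right), in percent, by quintile of fold enrichment, for all peaks, promoter peaks and peaks over 10 kb from any TSS, with Wilson 95% intervals. The left line for all peaks goes up from 24.8% to 39.7%. The left line for peaks over 10 kb away dips from 37.8% in quintile 3 to 34.4% in quintile 4. The right lines are lowest in the strongest quintile, 17.3% at promoters and 3.88% for all peaks.

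The 2 strengths at 1 site did not follow each other. Over the 2116 MAZ peaks with their nearest RAD21 summit, Spearman's rho of the ranks was 0.02 (0.06 at 1521 promoters and −0.05 at 292 sites over 10 kb away), a description over sites that share 2 libraries and the calling limit. The median percentile rank was 55.3 for MAZ and 40.7 for RAD21, and the MAZ rank was the higher one at 1339 sites (63.3%). Only 33 sites (1.56%) were in the strongest quintile of both lists and 88 were in the weakest quintile of both, while 124 paired a strongest-quintile MAZ peak with a weakest-quintile RAD21 peak and 25 the reverse. Over 10 kb from any TSS the order of the ranks was turned, with a median of 46.4 for MAZ and 50.2 for RAD21.

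**Figure D3:**
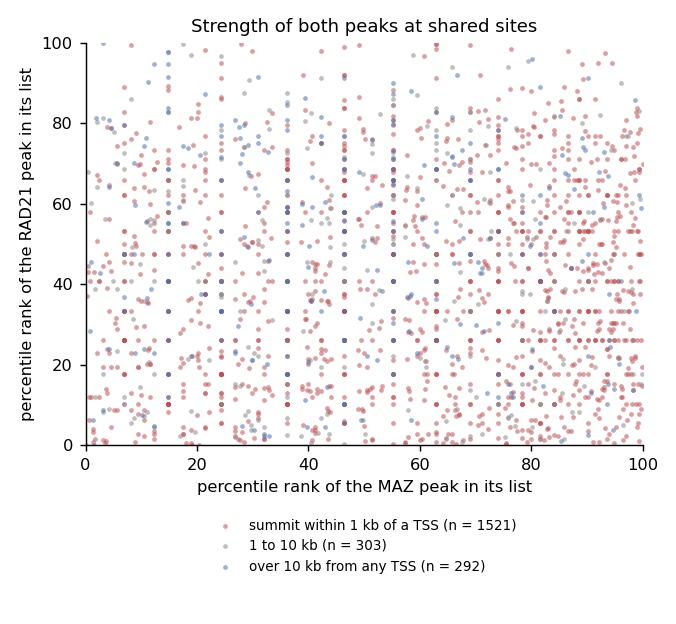
Percentile rank of the MAZ peak (x axis) against that of its RAD21 partner (y axis), each in its own ΔCTCF list, with 1 point per site with both, coloured by distance to the nearest TSS. Points fill the square with no slope (Spearman's rho 0.02, n = 2116), the top edge is thin, and vertical and horizontal stripes are peaks of equal fold enrichment.

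In level, MAZ peaks with RAD21 had a median fold enrichment of 6.19 (quartiles 5.30 to 7.98) and MAZ-only peaks 5.80 (5.03 to 7.25). RAD21 peaks with MAZ had a median of 4.53 (3.84 to 5.33) and RAD21-only peaks 4.99 (4.05 to 6.91). At promoters the RAD21 medians were the same with and without MAZ, 4.43 in both, while the upper quartiles were 5.24 and 5.48. Peaks were wider where both lay, with medians of 334 against 297 bp for MAZ and 347 against 314 bp for RAD21. An overlap of 1 bp is met more easily by a wider peak, so the rule itself leans this way.

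The 10 promoters of protein-coding genes at which both peaks ranked highest were Pou2f2, Ptgfrn, Faf2, Denr, Hs6st1, Pdrg1, Arl15, Lrp6, Pou2f1 and Magi1. MAZ of WT had been called at all 10, RAD21 of WT at 8 and CTCF of WT at 5, and RAD21 of ΔCTCF/ΔMAZ was called at all 10. Over all 1521 promoter MAZ peaks with RAD21 the shares were 72.6%, 14.3%, 10.6% and 22.1% in that order. The 10 were picked for rank, and RAD21 call rates followed strength. The MAZ summit lay upstream of the TSS at all 10, against 63.1% (60.6 to 65.5) of all promoter MAZ peaks with RAD21. The RAD21 summit lay upstream of the MAZ summit at 5 and downstream at 5.

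Pou2f2 and Pou2f1 encode transcription factors that bind the octamer motif. At Pou2f2 the MAZ peak (chr7:25133187-25133479) had a fold enrichment of 10.7 with a pileup of 28, and the RAD21 peak (chr7:25133038-25133633) had 19.6 with a pileup of 92, with summits 20 bp apart. At Pou2f1 MAZ had 17.0, at rank 99.0 among all MAZ peaks, and RAD21 had 8.34, at rank 83.7, with summits 30 bp apart. Ptgfrn, which encodes a membrane protein that inhibits prostaglandin F2 receptor signalling, had MAZ at 10.2 and RAD21 at 15.3. CTCF of WT was not called at Ptgfrn, and its RAD21 summit lay 83 bp from the MAZ summit on the upstream side.

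Faf2, which acts in protein degradation at the endoplasmic reticulum, had MAZ at 9.48 and RAD21 at 11.5, with summits 12 bp apart. Denr, a translation re-initiation factor, had MAZ at 9.39 and RAD21 at 15.0, with summits 98 bp apart. The highest RAD21 value of the 10 was at Pdrg1, with 20.7 against 8.90 for MAZ. Lrp6, a co-receptor for Wnt ligands, had the widest spacing of the 10, with 313 bp between the summits, and neither RAD21 of WT nor CTCF of WT was called there.

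Far from genes, the 5 strongest sites with both lay nearest to A230009B12Rik, Tmem51os1, Gm38509, Gm10655 and Mir6951, at 10597 to 24186 bp from the TSS. All 5 were called in MAZ of WT and in RAD21 of ΔCTCF/ΔMAZ, 4 in RAD21 of WT and 2 in CTCF of WT. Over all 292 MAZ peaks with RAD21 this far from a TSS, the shares were 51.7%, 24.7%, 20.5% and 7.19% in that order. The site near Tmem51os1, in an intron, had MAZ at 15.8 (rank 98.6) and RAD21 at 9.01 (rank 85.7) with summits 165 bp apart, and the window around it printed above was 52.8% G and C against 70.9% at Pou2f2.

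The strongest MAZ-only promoters were those of Rad17, a loader of the DNA damage checkpoint clamp, Ranbp6, an importin-like protein, Kmt2a, a histone H3 lysine 4 methyltransferase, Rcan1, a regulator of calcineurin, and the antisense gene AC120159.1. Rad17 had a fold enrichment of 38.3 with a pileup of 98, and its nearest RAD21 peak lay 33814 bp away. Ranbp6 had 36.0 and Kmt2a 34.1, with gaps to RAD21 of 11069 and 81518 bp. Rcan1 had 31.3 with a gap of 2131 bp, and AC120159.1 26.7 with a gap of 17431 bp. RAD21 of ΔCTCF/ΔMAZ was called at 2 of the 5, Ranbp6 and AC120159.1, against 130 of all 3438 MAZ-only promoter peaks (3.78%). Over all promoters, MAZ peaks with RAD21 reached a fold enrichment of 38.1 and MAZ-only peaks 38.3.

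The strongest RAD21-only peaks all lay on CTCF sites. The 5 at promoters (Gm25637, Gm49653, Pcdhgb7, Tmem106c and Ephb1) and the 3 over 10 kb from a TSS (near Anxa4, Agpat4 and Gm39456) overlapped a CTCF peak of WT and one of ΔCTCF, so these were sites where CTCF was still called after auxin. Of all RAD21-only peaks at promoters, 27.4% overlapped a CTCF peak of WT and 8.39% one of ΔCTCF. Over 10 kb from a TSS the shares were 47.6% and 13.4%. RAD21 fold enrichment was 69.1 at Gm25637, a small nuclear RNA gene, 30.8 at Ephb1, an ephrin receptor, and 51.5 near Anxa4, a calcium-dependent phospholipid-binding protein.

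Some promoters paired a strong peak of one protein with a weak peak of the other. RAD21 was far the stronger at Timm22, part of a translocase of the mitochondrial inner membrane, with RAD21 at rank 99.4 and MAZ at rank 8.09, and the summits were 388 bp apart. Pds5b, a cohesin-associated regulator, had RAD21 at 21.4 (rank 98.1) and MAZ at 4.98 (rank 21.3), and the pseudogene Gm28785 was the third. All 3 had RAD21 called in WT, ΔMAZ and ΔCTCF/ΔMAZ, and Timm22 and Pds5b lay on a CTCF peak of WT. MAZ was far the stronger at Fam8a1 (MAZ rank 99.3, RAD21 rank 0.946), Sez6 and Topbp1, an activator of the checkpoint kinase ATR, and none of the other RAD21 lists called these 3. Both sets were picked by rank, and RAD21 calls followed strength. At promoters with MAZ, the strongest RAD21 quintile was called at 79.2% in WT, 84.4% in ΔMAZ and 77.9% in ΔCTCF/ΔMAZ. The weakest was called at 6.33%, 9.98% and 8.52%.

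Nat9 and Dnajb12 were chosen by name because the study shows them as examples from these libraries, so they are no independent sample. At Nat9, which encodes an N-acetyltransferase, MAZ had 6.94 (rank 67.5, pileup 21) and RAD21 6.12 (rank 70.3, pileup 28), with the RAD21 summit 39 bp upstream. At Dnajb12, a chaperone of the endoplasmic reticulum, MAZ had 5.15 (rank 28.4, pileup 13) and RAD21 6.49 (rank 74.1, pileup 27), with the RAD21 summit 150 bp upstream. Neither RAD21 peak was called in WT, ΔMAZ or ΔCTCF/ΔMAZ, and neither site lay on a CTCF peak of WT.

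Summits of MAZ and RAD21 at shared sites lay near each other but not on top of each other. The median distance was 95 bp (88 to 100, n = 2116), with quartiles of 41 and 179 bp. It was 97 bp at promoters and 78.5 bp over 10 kb away. In all, 639 pairs (30.2%) were within 50 bp and 437 (20.7%) over 200 bp apart. No repeat list of a condition gives the precision of a summit, so lists of the same antibody in other conditions were set beside it. At the same sites, MAZ summits of ΔCTCF and WT differed by 44 bp in the median (41 to 47, n = 1432). RAD21 summits of ΔCTCF differed by 49 bp (42 to 62, n = 363) from those of WT, by 58 bp (49 to 71, n = 518) from those of ΔMAZ and by 63 bp (53 to 74, n = 509) from those of ΔCTCF/ΔMAZ. The distance between the 2 proteins was larger than these 4, which hold differences between conditions as well as between libraries. The RAD21 values hold only peaks called in both lists, and RAD21 call rates followed strength. At promoters with both peaks in the top 2 quintiles, the MAZ to RAD21 distance was 73 bp (52 to 91, n = 181). That interval overlapped those of the RAD21 comparisons and lay above that of MAZ.

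CTCF and RAD21 were closer. In ΔCTCF their summits were 31 bp apart in the median (30 to 32, n = 2136), and in WT 30 bp (n = 17510). RAD21 peaks of equal strength were also compared, with CTCF summits of WT at RAD21 peaks of ΔCTCF that had no MAZ. In the weakest quintile of RAD21, the distance to CTCF was 47 bp (41 to 53, n = 427) and to MAZ 101 bp (92 to 113, n = 517). In the strongest it was 30 bp (29 to 31, n = 3231) and 98 bp (82 to 128, n = 143). The intervals stood apart in each of the 5 quintiles, and the distance to MAZ was between 84 and 101 bp in each of them. MAZ strength moved it more, with 110 bp (96 to 126) in the weakest and 79 bp (68 to 87) in the strongest quintile of MAZ at promoters.

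Along the gene, the RAD21 summit lay more often upstream of the MAZ summit than downstream. At 1521 promoters it was upstream at 866, downstream at 645 and on the same base at 10, that is upstream at 57.3% (54.8 to 59.8) of those that differed, with a median of −24 bp. Summits of the same antibody in WT and ΔCTCF, read along the gene in the same way, were upstream at 51.8% (48.8 to 54.7) for MAZ of WT against MAZ of ΔCTCF and at 54.9% (48.4 to 61.2) for RAD21 of WT against RAD21 of ΔCTCF. RAD21 summits of ΔMAZ were upstream of those of ΔCTCF at 51.7% (46.3 to 57.0, n = 330) and those of ΔCTCF/ΔMAZ at 47.4% (42.1 to 52.7, n = 346). The intervals for MAZ of WT and for RAD21 of ΔCTCF/ΔMAZ did not reach that for RAD21 against MAZ, and those for RAD21 of WT and of ΔMAZ overlapped it. The downstream share was 42.7% in the whole set and between 38.3% and 44.6% in the other settings tried, below 50% in each.

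The order was also seen in the lists of untreated cells of the same line. With both lists from WT the RAD21 summit was upstream at 210 promoters and downstream at 131, that is upstream at 61.6%. The next values are splits of the ΔCTCF pairs themselves. Promoters with TSSs on both strands gave 57.1% upstream and promoters with a single direction 57.4%. At the 955 promoters whose MAZ summit lay upstream of the TSS no order was shown, with 52.6% upstream (49.4 to 55.8) and a median of −8 bp (−20 to 1). At the 559 whose MAZ summit lay downstream of it the share was 65.4% (61.3 to 69.2), and splitting on the MAZ summit itself pushes the shares apart in this direction. At the 172 promoters with a CTCF peak of WT it was 67.4%, against 56.0% elsewhere. At CTCF sites the direction was the opposite: in ΔCTCF the RAD21 summit lay downstream of the CTCF summit at 58.8% (53.2 to 64.2) of 308 promoters, and in WT at 55.2% (52.8 to 57.5) of 1758.

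**Figure D4:**
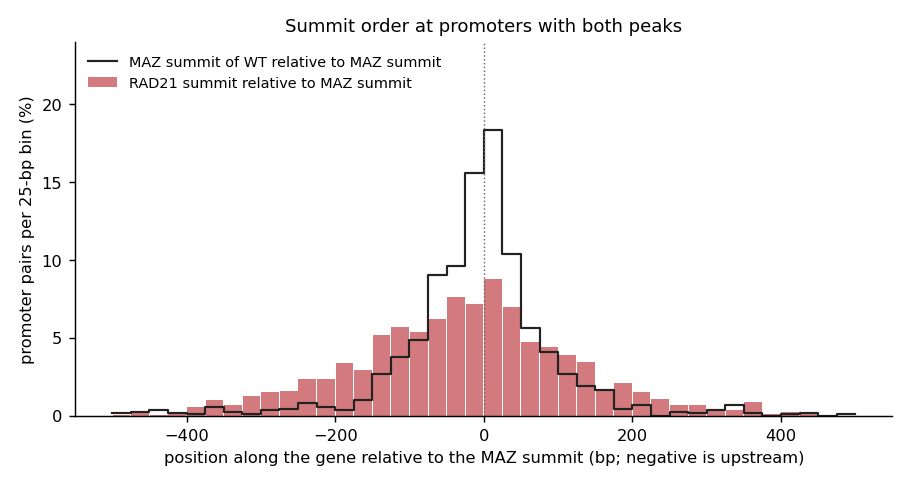
Position of the RAD21 summit relative to the MAZ summit along the gene at promoters with both (bars, percent of pairs per 25-bp bin), and of the MAZ summit of WT relative to that of ΔCTCF at the same sites (line). The line is narrow and centred, while the bars are broad and heavier on the upstream side (57.3% of pairs that differed).

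Summits of both proteins lay close to the TSS. With RAD21, MAZ summits had a median of −33 bp (−41 to −25) and 77.9% lay within 200 bp of the TSS. The RAD21 summits of the same pairs, measured from the TSS nearest the MAZ summit, had a median of −67 bp (−75 to −59) and 66.1% lay within 200 bp. Taking the TSS nearest the MAZ summit favours MAZ in this comparison. Measured from their own nearest TSS, RAD21 summits with MAZ had a median of −39 bp (−48 to −31, n = 1534), an interval that overlapped that of MAZ, and 70.7% lay within 200 bp. MAZ-only summits had a median of −25 bp and RAD21-only summits of −24 bp (−30 to −18), with 73.0% and 57.5% within 200 bp. On this measure the intervals of RAD21 summits with and without MAZ lay next to each other and did not overlap.

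**Figure D5:**
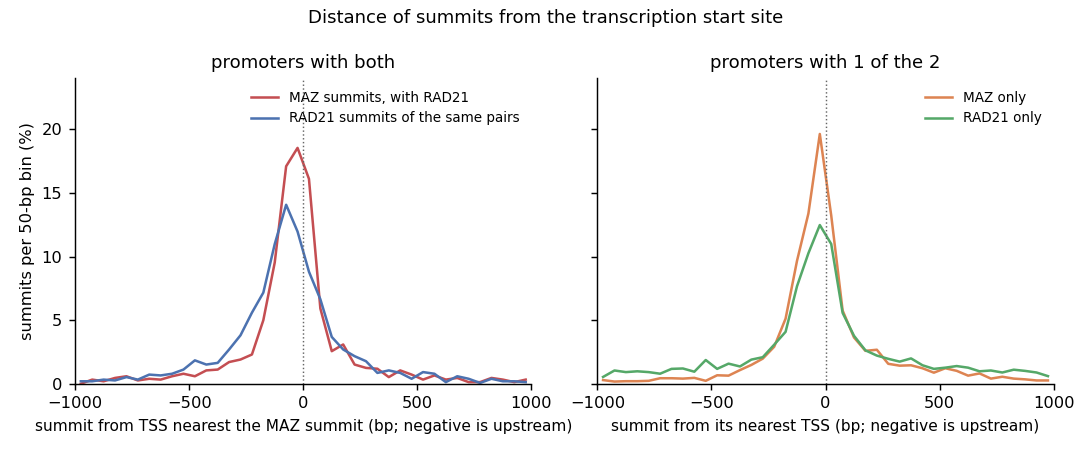
Summit positions along the gene (x axis, bp) from the TSS nearest the MAZ summit (left) or nearest the plotted summit (right), as percent of summits per 50-bp bin (y axis). Promoters with both are on the left and those with 1 of the 2 on the right. The RAD21 curve on the left peaks 1 bin upstream of the MAZ curve and has a broader upstream shoulder, with medians of −67 and −33 bp.

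The DNA at the summits differed between RAD21 classes and little between MAZ classes. In a window of 201 bp, G and C made up a median of 67.7% at MAZ peaks with RAD21, 67.2% at MAZ-only peaks, 65.7% at RAD21 peaks with MAZ and 50.7% at RAD21-only peaks. The ratio of observed to expected CpG had medians of 0.792, 0.756, 0.760 and 0.282 in that order. The letters GGGAGGG (either strand, overlaps with other motifs allowed) stood in 40.4% of the windows at MAZ peaks with RAD21 (38.3 to 42.5), in 43.5% at MAZ-only peaks (42.1 to 45.0), in 28.7% at RAD21 peaks with MAZ and in 8.86% at RAD21-only peaks. For scale, 17.0% of the windows at TSSs of protein-coding genes held them, and 7.59% of the windows 2 kb from MAZ peaks with RAD21.

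The GC box GGGCGGG, bound by proteins of the SP and KLF families, stood in 52.6% of MAZ peaks with RAD21, 52.1% of MAZ-only peaks, 42.7% of RAD21 peaks with MAZ and 7.30% of RAD21-only peaks, against 26.9% of TSS windows. Letters from the CTCF motif (CNAGGGGGC) stood in 4.49% (3.69 to 5.46), 3.38% (2.90 to 3.94), 4.87% and 5.18%, against 2.22% of TSS windows. These letters do not follow CTCF peaks: 45.2% of RAD21-only and 3.30% of MAZ-only peaks overlapped a CTCF peak of WT. The printed window near Anxa4, on a CTCF peak, holds no copy. The shares are thus no measure of CTCF sites in the classes. Within promoters the contrast for RAD21 remained, with GGGAGGG at 28.4% of RAD21 peaks with MAZ and 12.1% of RAD21-only peaks. The contrasts in base composition were smaller with location held. Medians of G and C were 68.7% with MAZ and 60.2% without at promoters, and 54.2% and 49.3% over 10 kb from a TSS. The CpG ratios were 0.839 and 0.694 at promoters and 0.284 and 0.224 over 10 kb away.

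At the 854 MAZ peaks with RAD21 that held GGGAGGG within 100 bp of the MAZ summit, the copy nearest that summit lay 35 bp from it in the median, and the RAD21 summit lay 104 bp from the same copy. The MAZ summit was the nearer one at 688 of them (80.6%, 77.8 to 83.1). The window was centred on the MAZ summit, which favours MAZ in this count. Of the printed windows, 3 hold a core and both peaks. At Ptgfrn, whose MAZ summit is base 144 of 204 and RAD21 summit base 61, the MAZ summit lies within the core. At Faf2 the summits, bases 61 and 73, lie on the same side of it, and at Nat9 it lies between the MAZ summit, base 49 of 96, and the RAD21 summit, base 10.

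For genes, a promoter counted as carrying a peak when a summit lay within 1 kb of one of its TSSs. Of 21938 protein-coding genes, 21.7% had MAZ, 18% (3939) had RAD21 and 6.90% had a MAZ peak that overlapped a RAD21 peak, so that 31.7% of the genes with MAZ had both. The counts of the gene groups below are to be read against these shares. No test was made of any group.

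Of 20 pluripotency factors, 8 had MAZ, 8 had RAD21 and 6 had both. Klf4 had one of the strongest MAZ peaks of the list, at 18.6 (rank 99.3), with RAD21 at 5.96 (rank 68.7) and summits 31 bp apart. Klf2, a factor of the same family, had MAZ at 7.65 and RAD21 at 6.46. Tbx3 had the strongest RAD21 peak of the 6, at 9.04 (rank 85.7), and was the one of them with RAD21 called in WT and with a CTCF peak of WT. Nr5a2 had MAZ at 5.80 and RAD21 at 4.53. Nanog, a core homeodomain factor of the pluripotent state, had MAZ at 5.36 with a pileup of 16 and RAD21 at 3.72 with a pileup of 18, and Sox2 had 4.1 with a pileup of 12 and 4.01 with a pileup of 21. Pou5f1 and Sall4 had MAZ only, at 7.35 and 5.36. RAD21 of ΔCTCF/ΔMAZ was called at 2 of the 6, Klf2 and Tbx3, against 22.1% of all promoter MAZ peaks with RAD21.

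Of 20 transcription factors of the germ layers, 2 had MAZ (Neurog1 and T), 4 had RAD21 (among them Eomes and Otx2) and 0 had both. Of 39 Hox genes, which pattern the body axis, 5 had MAZ, 9 had RAD21 and 2 had both. Hoxc13 had MAZ at 14.3 (rank 97.8) and RAD21 at 7.09 (rank 77.8) with summits 43 bp apart, and Hoxb9 had 6.58 and 4.19 with summits 186 bp apart. Both had RAD21 called in ΔCTCF/ΔMAZ and not in WT, lists that called 22.1% and 14.3% of all promoter MAZ peaks with RAD21. RAD21 without MAZ was strongest at Hoxa5 (18.3) and Hoxc10 (17.9), both on CTCF peaks of WT, and Hoxd8 and Hoxd11 had MAZ only.

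Among 15 cohesin subunits and regulators, 8 had MAZ, 4 had RAD21 and 3 had both. These were Rad21 itself, with MAZ at 11.2 (rank 94.2) and RAD21 at 4.29 (rank 33.3), Pds5b, described above, and Stag1, a cohesin subunit, with 6.27 and 3.67. Ctcf, Esco2, Mau2 and Wapl had MAZ only, and Smc3 had both proteins in peaks that did not overlap. Of 15 zinc finger and GC-box proteins, 12 had MAZ, 5 had RAD21 and 3 had both. The Maz promoter carried MAZ at 13.2 (rank 97.0) and RAD21 at 4.05 (rank 26.1), 41 bp apart. Zfp143 and Sp4 were the other two. Patz1, a zinc finger protein, had MAZ only, at 13.2, as had Sp1, Sp3 and Yy1.

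Housekeeping groups were read in the same way. Of 78 cytosolic ribosomal protein genes, 24 had MAZ, 23 had RAD21 and 7 had both (among them Rps19, Rps20 and Rpl15), while 15 had MAZ only and 14 RAD21 only. Rps19 had MAZ at 6.42 and RAD21 at 5.76 with summits 30 bp apart. Of 78 mitochondrial ribosomal protein genes, 17 had MAZ, 30 had RAD21 and 7 had both, with Mrpl17 the highest (10.4 and 5.13). Of 39 proteasome subunits, 8, 14 and 3 did, Psmd12 with MAZ at 12.0, RAD21 at 4.53 and summits 6 bp apart. Of 13 RNA polymerase II subunits, 3, 7 and 2 did, and Polr2a, the largest subunit, had MAZ at 12.0 and RAD21 at 4.43. Of 67 replication-dependent histone genes, 4 had MAZ, 7 had RAD21 and 2 had both, Hist1h1c and Hist1h4c. These histone shares of 5.97% and 10.4% were below those of all genes. Of the members with MAZ, 29.2% of the cytosolic ribosomal, 41.2% of the mitochondrial ribosomal, 37.5% of the proteasome, 66.7% of the RNA polymerase II (2 of 3) and 50.0% of the histone genes (2 of 4) had both, against 31.7% over all genes, with no test of a difference.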

How the data were processed

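Groups were taken from the sample titles. Per library, the authors aligned reads to mm10 (Bowtie 2), filtered them and took out duplicates (SAMtools), and called narrow peaks (MACS). Use of an input control is not given in the sources used here, and the spike-in did not enter the lists. Each deposited list gives a score (10 times −log10 q, not used), a fold enrichment (a ratio of pileup to local background, used for ranks), −log10 p and −log10 q values, and the offset of the summit. For CTCF and MAZ a further sample of each condition, 8 in all, came with no list and was not analysed here. The lists of CTCF in ΔMAZ and ΔCTCF/ΔMAZ were not used here.

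The read pileup at a summit was taken as the whole number that, with the background its fold enrichment implies, came nearest to the deposited −log10 p, which it met within 0.001 at all 6759 MAZ and 17912 RAD21 peaks. Overlaps of at least 1 bp equalled those of bedtools 2.31.1 in 18 pairs of lists, with 0 peaks that differed. The overlap, direction and pileup functions were also tested on simulated data. The partner of a MAZ peak was the overlapping RAD21 peak with the nearest summit. TSSs came from GENCODE vM21 basic, the nearest TSS to the MAZ summit gave the gene's strand, and a promoter with TSSs on both strands had them within 1 kb. Motif windows reached 100 bp to each side.

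Named sites were the 10 promoters of protein-coding genes and the 5 sites over 10 kb from a TSS with the highest lower rank of the 2 peaks, the 5 strongest MAZ-only promoters, the 5 promoter and 3 distal RAD21-only peaks of highest fold enrichment, the 3 promoters with the largest rank difference in each direction, members of fixed gene lists (some are counted but not reported by name here), and Nat9 and Dnajb12. The members and lists were chosen with earlier results of these data known. Alternatives were other overlap rules, a stricter q, lists of equal length, lists without peaks of the knockout MAZ lists or at CTCF peaks, the MAZ list of WT, another partner rule and other TSS rules. Python 3.11.15, SciPy 1.17.1 and pysam 0.24.0 were used.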

Additional observations from a re-analysis of the deposited data

How the results depend on the processing

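Of 59 values under 12 other settings, 29 stayed within the counting interval of the value reported, 30 moved out of it, and the summit order did not turn in any. The share of MAZ peaks with RAD21 (31.3%) was 19.2% with a reciprocal overlap of 50%, 36.3% with gaps of up to 500 bp, 20.5% with a stricter q (−log10 q of 5 or more), 7.47% in lists of equal length and 29.4% without peaks at CTCF peaks. The share of RAD21 peaks with MAZ (11.9%) was 7.25%, 14.2%, 8.24%, 7.28% and 17.9% in the same order, and 11.1% with the MAZ list of WT. The summit distance (95 bp) was 69 bp with the reciprocal overlap, which by its construction takes out distant summits, and 87 bp with the stricter q and in lists of equal length. The RAD21 summit was downstream at 39.5% with the stricter q and at 38.3% in lists of equal length, against 42.7%. The promoter share of sites with both (71.9%) was 69.8% with the stricter q, 64.2% in lists of equal length, 76.1% with TSSs within 2.5 kb and 67.6% with protein-coding TSSs only. That of MAZ-only peaks (74.0%) was 76.7% with the stricter q, 79.2% within 2.5 kb and 71.0% with protein-coding TSSs. Sites with both were thus lower than MAZ-only peaks in promoter share by intervals that did not overlap with the stricter q, in lists of equal length and within 2.5 kb. That of RAD21-only peaks (20.0%) was 22.5% with the reciprocal overlap, 18.7% with gaps, 17.6% with the stricter q, 12.3% in lists of equal length, 26.7% without peaks at CTCF peaks, 27.8% within 2.5 kb and 16.1% with protein-coding TSSs. Except where the setting itself gives it, the cause was not tested.

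No paired analysis was possible because a single list stands for each group. Leaving out a replicate was not possible for the same reason. Depth limits what a peak called alone can mean: the lists give no read totals, the MAZ list rests on a median of 16 reads at a summit, and whether the partner of a MAZ-only or RAD21-only peak lay below the calling limit cannot be read from these lists.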

Other observations

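On the X chromosome MAZ and RAD21 hardly met. Of 77 MAZ peaks there, 3 (3.90%, 1.33 to 10.8) overlapped a RAD21 peak, against 26.8% to 41.8% on the 19 autosomes. Of 169 RAD21 peaks there, 3 (1.78%, 0.606 to 5.09) overlapped a MAZ peak, against 8.34% to 13.9%. The X chromosome held 1.14% of the MAZ and 0.944% of the RAD21 peaks. Its MAZ peaks had a median pileup of 14 against 16 on autosomes, and its RAD21 peaks 22 against 22. The part of depth or copy number in this was not tested. The comparison of chromosomes was made after the values were seen.

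At the 65 promoters where a MAZ peak and a CTCF peak of ΔCTCF overlapped, the MAZ summit lay downstream of the CTCF summit along the gene at 48 and upstream at 17 (73.8% downstream, 62.0 to 83.0). The median distance over all 89 such pairs was 94 bp (67 to 118), close to the 95 bp between MAZ and RAD21. CTCF summits at RAD21 peaks of the same cells lay 31 bp from the RAD21 summit in the median.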
